A study of Mus musculus with 24 samples.

Results

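A group of 39 mouse genes of autophagy and the lysosome was measured in MLO-Y4 cells, a mouse line with osteocyte features. The genes were chosen by name, and each was read from the brightest row (probe set) whose annotation holds that symbol and no other. Of the 39, 38 had such a row and all 38 passed the filter on dim rows, among 14489 genes tested. Optn, a cargo receptor, was not analysed here. The 38 comprise 22 genes of the autophagy machinery, 15 lysosomal genes and Tfeb, a transcription factor of both systems.

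Total RNA was measured on 24 Affymetrix arrays, 3 for each of 8 groups that cross an arm with an environment. In the IgG arm cells received an irrelevant rabbit IgG, and in the E2 arm Cx43(E2), an antibody against connexin 43 that blocks the hemichannels this protein forms. The antibody was present for 30 min at 37 °C in 5% CO2 (1:50 dilution, 28 µg/ml for Cx43(E2)) before the environments were parted. Cells then stayed in an incubator (C) or at the position labelled 1g, 2g or μg (ug here) on the platform of a high magneto-gravitational environment. The time on the platform is not stated, and every group is the same single cell line. Titles also carry a replicate number, and the 4 arrays of 1 arm with the same number, 1 from each environment, are called a set, so that IgG 2 is number 2 of the IgG arm. Nothing says what the number stands for or that replicates were separate cultures, so p-values measure only the spread between these arrays.

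Autophagy wraps cytoplasm in a double membrane, the autophagosome, which fuses with a lysosome where hydrolases break the contents down in an acid space kept by the V-type proton pump. The machinery comprises kinase and lipid-kinase complexes that start the process, proteins that supply membrane, enzymes that attach Atg8 proteins (the LC3 and GABARAP families) to lipid, and receptors that bring cargo. TFEB and its relatives raise many lysosomal genes through a palindromic promoter element, and mTORC1, a kinase at the lysosome's surface, holds TFEB back. Messenger levels of these genes do not measure autophagic flux.

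Values are deposited log2 intensities, and changes are differences on that scale with the standard error from limma. Array medians ran from 6.48 to 6.65. The number of arrays limits the precision. Of 8 osteocyte markers, Pdpn (12.70) and Gja1 (11.68), the gene of connexin 43, were bright, while Dmp1 (4.74), Phex (4.61) and Mepe (4.60) stayed below the filter, whose mean level was 5.99. Cd44 (9.08), Sost (7.07) and Fgf23 (7.04) passed it. Of 8 macrophage markers, Ptprc (5.12), Adgre1 (4.58) and Itgam (5.62) were below the filter too. The other macrophage markers, Cd68 (8.66), Lyz2 (7.74), Csf1r (6.92), Tyrobp (6.23) and Laptm5 (5.97), passed it. In bulk RNA, fewer cells of a type and less RNA per cell cannot be told apart.

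The members were bright as a group. The median level was 11.39 over the lysosomal genes and 9.62 over the machinery, against 8.41 over all genes tested. Levels of different probe sets are not compared further, since a probe set's brightness also depends on its sequence. Over the 24 arrays the range was widest for Atp6v1h (probe set 10344637, a regulatory subunit of the proton pump; 0.919), Gla (10606714, lysosomal alpha-galactosidase; 0.861) and Atg7 (10540860, the activating enzyme of the conjugation system; 0.835). It was narrowest for Gabarap (10377689; 0.139), Gabarapl2 (10528546; 0.187), both Atg8 proteins, and Ctsb (10415844, the protease cathepsin B; 0.211).

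The mean of the lysosomal genes was high on the arrays of sets IgG 1, IgG 2 and E2 3 and low on those of IgG 3, E2 1 and E2 2. Not every gene followed: Npc2 averaged 11.20 in E2 3 and 11.23 in IgG 3, and Atp6v0d1 11.21 in E2 1 and 11.13 in IgG 1. The mean deviation of the 15 lysosomal genes from their own means over 24 arrays was 0.08 ± 0.03 in IgG 1, 0.10 ± 0.04 in IgG 2 and 0.13 ± 0.04 in E2 3 (log2, SD over the 4 arrays of a set). It was -0.08 ± 0.03 in IgG 3, -0.10 ± 0.06 in E2 1 and -0.13 ± 0.06 in E2 2. The lowest of the 12 arrays in the former sets lay at 0.04 and the highest of the 12 in the latter at -0.03, so the ranges did not overlap. The machinery had no such division as a whole, since its set means ran from -0.03 in E2 1 to 0.02 in IgG 2 and the array ranges of all 6 sets overlapped. Its roles differed, however. The conjugation enzymes divided as the lysosomal genes did, with arrays at -0.009 to 0.168 in IgG 1, IgG 2 and E2 3 and -0.169 to -0.025 in the other sets. Set means of the initiation and of the membrane supply genes went the other way, below 0 in IgG 1, IgG 2 and E2 3 and above 0 in the other sets. Over all genes the set means ran from -0.02 to 0.01. The division was not particular to the members: the first principal component of all 14489 genes, with 44.6% of the variance, was above 0 on every array of IgG 1, IgG 2 and E2 3 (6.90 to 22.7) and below 0 on every other array (-26.0 to -3.73).

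**Figure D1:**
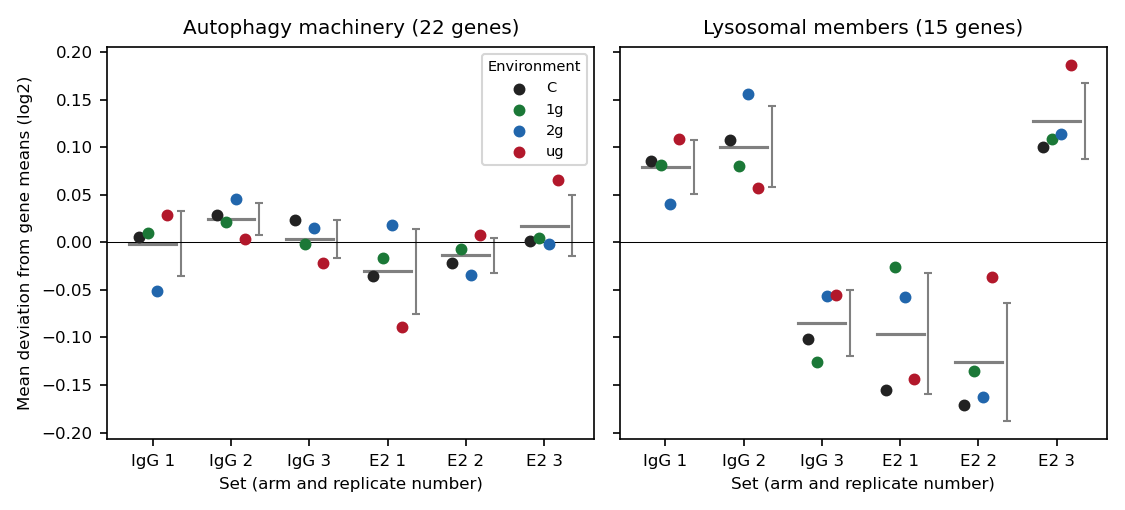
Mean deviation of the machinery (left, 22 genes) and the lysosomal members (right, 15 genes) from each gene's mean over 24 arrays, in log2 units, by set; each point is 1 array, coloured by environment, and grey lines and bars give the mean and SD of the 4 arrays of a set. Lysosomal means lie above 0 in IgG 1, IgG 2 and E2 3 and below 0 in IgG 3, E2 1 and E2 2, while machinery means stay between -0.03 and 0.02.

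An F test among the 3 sets of an arm, with the 8 group means in the model, was added after earlier results of these data were known. Across both arms it passed for 26 of the 38 members, 68.4%, against 41.9% of all genes tested and 64.6% of the brightest 25% of genes (limma, Benjamini-Hochberg over all genes, adjusted p below 0.05). By class the test passed for 12 of 15 lysosomal genes and 14 of 22 of the machinery, and not for Tfeb (adjusted p = 0.720). In the IgG arm alone it passed for 16 members (42.1%), against 25.2% of all genes and 41.5% of the brightest 25%. In the E2 arm alone it passed for 24 (63.2%), against 39.3% of all genes and 60.7% of the brightest 25%. These shares of members lay near those of the brightest 25%. These counts rest on 1 set in each arm: without IgG 3 no member and 12 genes passed in the IgG arm, and without E2 3 only Gabarapl1 passed among members in the E2 arm, with 557 genes in all.

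The direction differed between the classes. For 14 of 15 lysosomal genes (93.3%), IgG 3 had the lowest mean of its arm and E2 3 the highest, and the exception was Atp6v0d1, a membrane subunit of the proton pump. No lysosomal gene had the opposite order. Of the 22 machinery genes, 7 had the same order as the lysosomal genes, 7 the opposite one and 8 neither. Among all genes tested, 31% had the first order and 23.4% the opposite one, and in the brightest 25% the shares were 35.1% and 31.6%.

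Markers of other cell types, and other measures, moved with the sets in part. Of 8 macrophage markers, 5 were tested and 3 passed the F test (Cd68, Lyz2 and Csf1r, with Cd68 also a lysosomal membrane protein). The mean level of the 8 was 6.39 to 6.54 on the arrays of IgG 1, IgG 2 and E2 3 and 6.15 to 6.41 on the others. The macrophage markers Ptprc, Adgre1 and Itgam lay below the filter, as given above, and were not tested. Of the 4 osteoblast markers with a row, only Alpl and Col1a1 were tested, and both passed and went the other way. The means of the 4 were 7.46 to 7.66 against 7.76 to 8.04. Sp7 (5.62) and Ibsp (5.06) lay below the filter, and neither was both highest in IgG 3 and lowest in E2 3 within the arms. Of the osteocyte markers, Gja1, Pdpn and Cd44 passed (adjusted p = 2.11e-09, 0.000440 and 0.00488). Gja1, the gene of the antibody's target, had set means of 11.56, 11.50 and 11.94 in IgG 1 to 3 and 11.82, 11.86 and 11.42 in E2 1 to 3, so it was low where the lysosomal genes were high. Of 5 endothelial markers, 4 were tested and Vwf passed (adjusted p = 0.000151), while Pecam1 (5.82), Kdr (5.83) and Tek (5.96) had mean levels below that of the filter. Kdr was the marker not tested, and the mean of the 5 overlapped among sets. Array medians overlapped among all 6 sets. The part of cell make-up in the set differences was not tested.

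**Figure D2:**
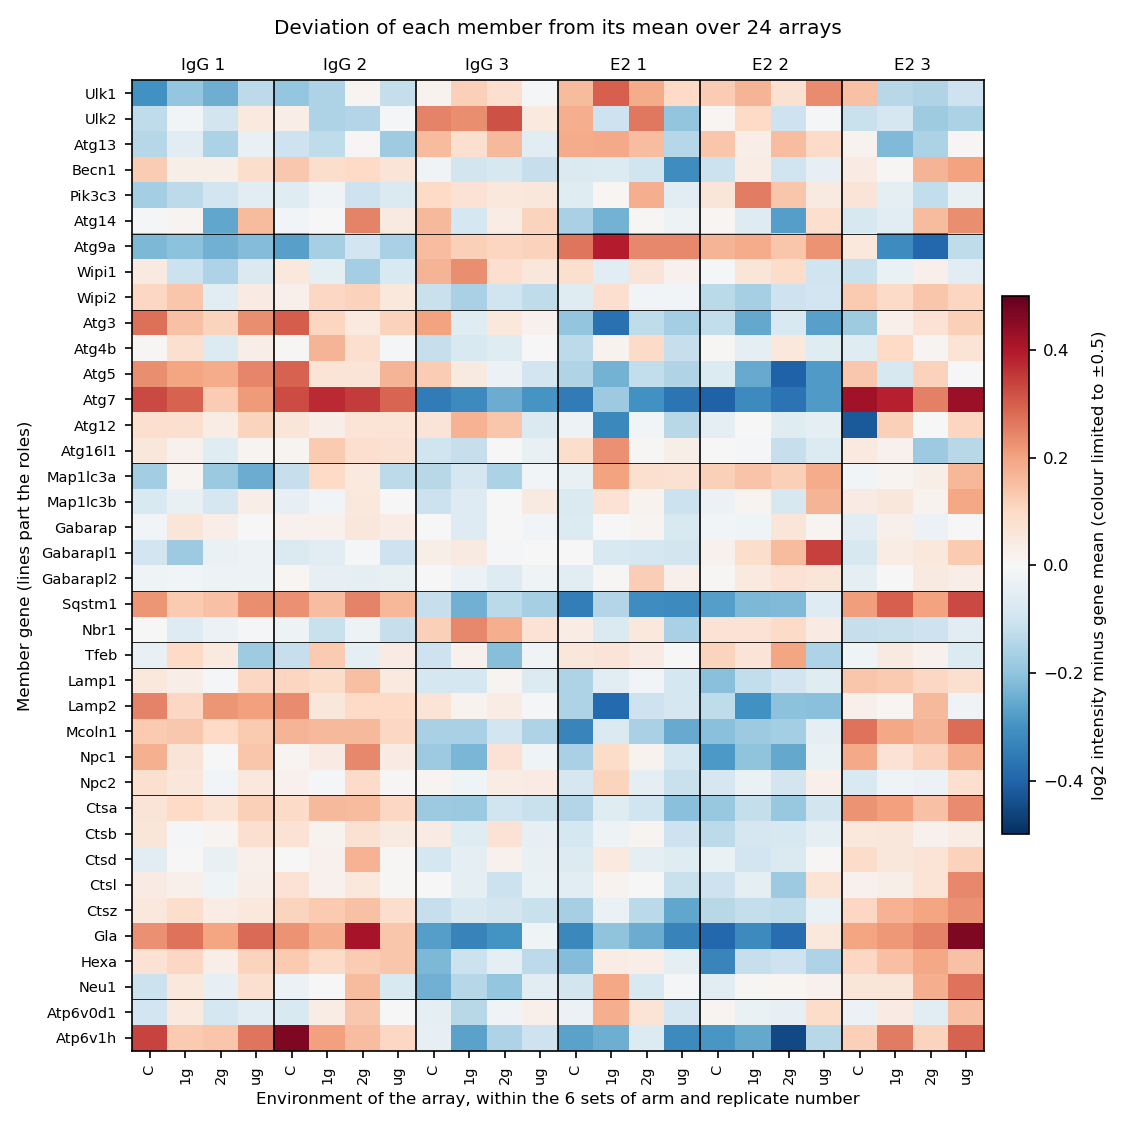
Deviation of each of the 38 members (rows, grouped by role) from its mean over the 24 arrays (columns, grouped by set and ordered C, 1g, 2g, ug within it), in log2 units (the colour scale is capped, as its bar shows). Columns change mainly at the set borders: Atg7, Sqstm1, Gla and Mcoln1 are high in IgG 1, IgG 2 and E2 3, and Atg9a is low there, while Gabarap and Gabarapl2 hardly vary.

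Among initiation genes, 3 of those that passed the F test ran opposite to the lysosomal genes by set and Becn1 ran with them. Ulk1 (10532472), the kinase that starts autophagosome formation, averaged 9.35 ± 0.07, 9.46 ± 0.09 and 9.63 ± 0.06 in IgG 1 to 3 and 9.76 ± 0.08, 9.72 ± 0.07 and 9.51 ± 0.14 in E2 1 to 3 (F test adjusted p = 0.00109). Ulk2 and Atg13, its paralogue and its partner, had the same order (adjusted p = 0.0369 and 0.0199). Becn1, the scaffold of the lipid-kinase complex, had the lysosomal order, from 9.34 in E2 1 to 9.58 in E2 3 (adjusted p = 0.00442). The lipid kinase Pik3c3 and its adaptor Atg14 did not pass (adjusted p = 0.0513 and 0.448).

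In membrane supply, Atg9a (10355763), which carries membrane on vesicles, was the strongest case of the opposite order. Its values were 9.39, 9.41, 9.37 and 9.39 in IgG 1, then 9.34, 9.44, 9.51 and 9.45 in IgG 2, and finally 9.77, 9.73, 9.72 and 9.72 in IgG 3 (C, 1g, 2g, ug). In the E2 arm they were 9.88, 10.00, 9.85 and 9.85 in set 1, 9.78, 9.80, 9.75 and 9.83 in set 2, and 9.66, 9.29, 9.22 and 9.48 in set 3. Every array of IgG 3, E2 1 and E2 2 lay above every array of the other sets (F test adjusted p = 2.71e-06). Wipi2, which binds the lipid made by Pik3c3 and recruits Atg16l1, went the other way, from 10.54 in IgG 3 and E2 2 to 10.78 in E2 3 (adjusted p = 0.000104).

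In the conjugation system, Atg7 had the smallest p of all members. Its values were 10.64, 10.61, 10.44 and 10.52 in IgG 1, then 10.64, 10.68, 10.66 and 10.60 in IgG 2, and finally 9.96, 9.99, 10.06 and 10.02 in IgG 3. In the E2 arm they were 9.96, 10.13, 10.01 and 9.95 in set 1, 9.91, 9.99, 9.94 and 10.03 in set 2, and 10.73, 10.70, 10.56 and 10.74 in set 3. The highest array of the low sets read 10.13 and the lowest of the high sets 10.44 (F test adjusted p = 4.12e-11). Atg5, part of the complex that places LC3 on membranes, and Atg3, the enzyme that hands LC3 to lipid, had the same order within each arm with a smaller spread (adjusted p = 0.00171 and 0.00897). Across arms Atg3 did not divide as Atg7 did, at 9.92 in E2 3 and 9.96 in IgG 3. Among the IgG sets alone Atg5 and Atg3 did not pass (F test adjusted p = 0.0539 and 0.206). Atg12, the partner of Atg5, did not pass across both arms (adjusted p = 0.919).

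Of the 5 genes of Atg8 proteins, Gabarapl1 passed the F test (adjusted p = 0.00800), with set means from 11.29 in IgG 1 to 11.53 in E2 2. Gabarap lay between 12.86 and 13.00 on all 24 arrays. Map1lc3a, Map1lc3b and Gabarapl2 did not pass (adjusted p = 0.247, 0.406 and 0.794). Gabarapl2 and Map1lc3b each had a second probe set. For Map1lc3b both read alike (11.58 and 11.57), but for Gabarapl2 the other one, 10575616, averaged 5.35 against 11.65 for the one used, with set means from 4.98 in E2 3 to 5.54 in E2 1. The values of Gabarapl2 are therefore uncertain as to the transcript they measure, since the symbol belongs to both.

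The cargo receptor Sqstm1 (10385572, p62), which binds ubiquitin and LC3, averaged 13.04 ± 0.05, 13.06 ± 0.05 and 12.70 ± 0.06 in IgG 1 to 3 and 12.58 ± 0.09, 12.66 ± 0.09 and 13.12 ± 0.06 in E2 1 to 3 (F test adjusted p = 6.95e-11). Its lowest array in the high sets, 12.99, lay above the highest in the low sets, 12.79. Nbr1, the other receptor measured, had the opposite order, from 9.94 in E2 3 to 10.19 in IgG 3 (adjusted p = 0.00117).

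Among lysosomal membrane and transport proteins, Mcoln1 (10569771), the calcium channel of the lysosome, averaged 11.51 ± 0.02, 11.54 ± 0.03 and 11.25 ± 0.03 in IgG 1 to 3 and 11.19 ± 0.11, 11.24 ± 0.07 and 11.62 ± 0.06 in E2 1 to 3 (F test adjusted p = 7.61e-08). The abundant membrane proteins Lamp1 and Lamp2 and the cholesterol exporter Npc1 also passed (adjusted p = 1.94e-05, 7.08e-05 and 0.00103). Npc2, the soluble partner of Npc1, did not (adjusted p = 0.926).

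Of 8 hydrolases, 7 passed across both arms, with 7 in the E2 arm alone and 4 in the IgG arm alone. Gla read 11.51, 11.55, 11.48 and 11.56 in IgG 1, then 11.50, 11.46, 11.69 and 11.42 in IgG 2, and finally 11.00, 10.95, 10.98 and 11.26 in IgG 3. In the E2 arm it read 10.96, 11.08, 11.03 and 10.95 in set 1, 10.89, 10.96, 10.90 and 11.33 in set 2, and 11.48, 11.50, 11.53 and 11.75 in set 3. The ug arrays of IgG 3 and E2 2 stood above the other arrays of their sets but below every array of the high sets (adjusted p = 3.40e-07). Ctsa, the protective protein of neuraminidase, had set means from 11.88 in E2 2 to 12.23 in E2 3 (adjusted p = 1.09e-08), and Ctsz, a carboxypeptidase, and Hexa, a subunit of hexosaminidase, followed it (adjusted p = 2.30e-07 and 5.96e-07). Cathepsins D, B and L passed with smaller ranges (Ctsd, Ctsb and Ctsl, adjusted p = 0.00771, 0.00969 and 0.0242), but not in the IgG arm alone (F test adjusted p = 0.154, 0.461 and 0.331). Neu1, the neuraminidase that Ctsa protects, did not pass (adjusted p = 0.0756).

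The 2 proton pump subunits parted. Atp6v1h averaged 9.72 ± 0.10, 9.73 ± 0.16 and 9.36 ± 0.10 in IgG 1 to 3 and 9.27 ± 0.11, 9.21 ± 0.13 and 9.69 ± 0.09 in E2 1 to 3 (F test adjusted p = 2.82e-06). Atp6v0d1 had set means between 11.13 and 11.21 (adjusted p = 0.783).

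**Figure D3:**
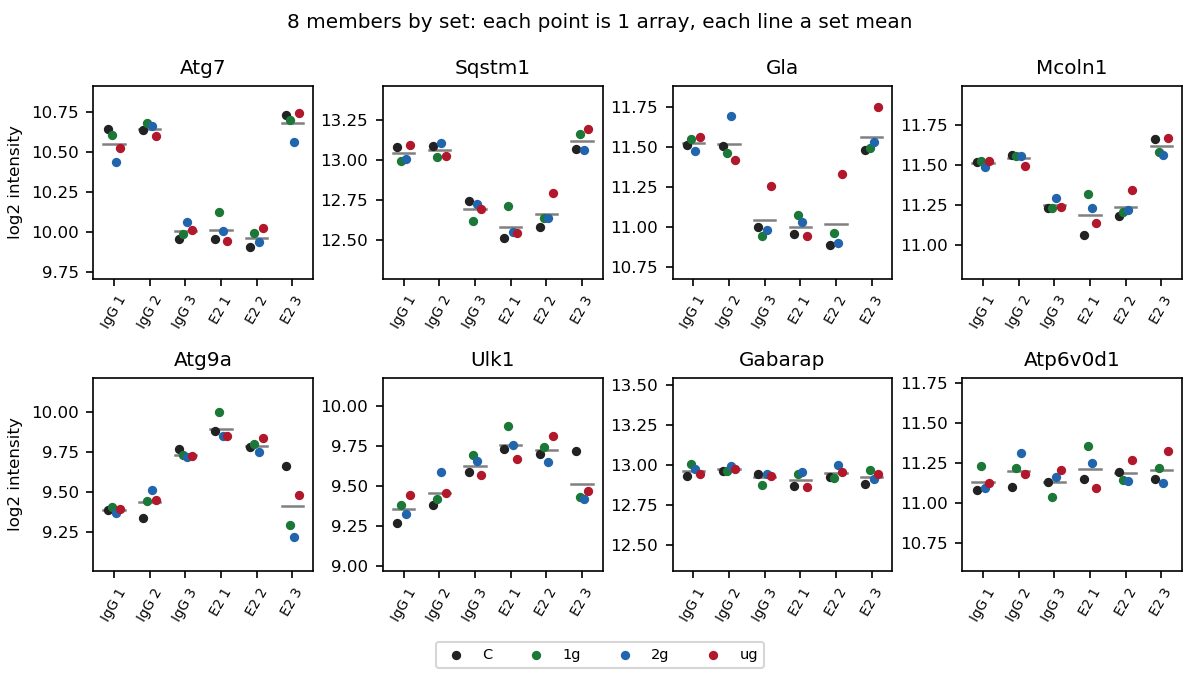
Log2 intensity of 8 members by set, 1 point for each array, coloured by environment, with grey lines for set means; every panel spans the same number of log2 units. Atg7, Sqstm1, Gla and Mcoln1 are high in IgG 1, IgG 2 and E2 3, Atg9a and Ulk1 run the other way, and Gabarap and Atp6v0d1 stay level.

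The promoters of the members of both classes were searched for the palindromes CACGTG (the E-box core) and TCACGTGA, which lies within the element of TFEB targets. Both read the same on either strand, and the longer one contains the shorter. RefSeq windows (GRCm38.p6, 250 bases before to 50 after a start site) were found for 31 of the 39 members, in 35 windows. CACGTG stood in 11 of the 35 (31.4%) against 7.15% of 32851 windows of the same length, and TCACGTGA in 6 (17.1%) against 0.974%. The 6 with TCACGTGA belong to Ctsa, Ctsd, Gla, Mcoln1, Atp6v0d1 and Atg3. Of these, Atp6v0d1 did not pass the F test among sets, which 26 of the 38 members passed. Sqstm1 and Hexa, whose windows hold neither palindrome, passed it too. A match is a description of these letters and not of binding. The members were chosen by name as genes of autophagy and the lysosome, and a link of the palindromes to the set differences was not tested. The stretches below hold the palindrome in capitals, in the strand of the gene, and Atg7 is added as the member with the smallest p, with CACGTG alone.
Gla, chrX:134601158-134601235, minus strand: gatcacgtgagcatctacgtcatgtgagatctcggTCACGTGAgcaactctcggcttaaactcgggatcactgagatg
Mcoln1, chr8:3500438-3500515, plus strand: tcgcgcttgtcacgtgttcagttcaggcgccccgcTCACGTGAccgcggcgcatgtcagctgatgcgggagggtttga
Ctsa, chr2:164833725-164833797, plus strand: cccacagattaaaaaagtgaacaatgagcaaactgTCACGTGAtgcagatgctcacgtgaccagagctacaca
Ctsd, chr7:142387884-142387961, minus strand: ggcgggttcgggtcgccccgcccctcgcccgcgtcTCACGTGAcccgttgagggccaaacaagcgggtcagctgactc
Atp6v0d1, chr8:105566040-105566103, minus strand: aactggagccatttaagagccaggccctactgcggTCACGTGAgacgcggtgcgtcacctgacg
Atg3, chr16:45158722-45158799, plus strand: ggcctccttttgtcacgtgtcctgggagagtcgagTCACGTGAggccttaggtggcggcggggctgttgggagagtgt
Atg7, chr6:114670929-114671004, plus strand: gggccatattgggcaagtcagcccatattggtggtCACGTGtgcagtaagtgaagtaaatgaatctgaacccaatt
Counted from the start site, the capitals begin at -195 in Gla, -46 in Mcoln1, -13 in Ctsa, -99 in Ctsd, -4 in Atp6v0d1, -72 in Atg3 and -132 in Atg7. Ctsa, Gla and Mcoln1 hold a further CACGTG or TCACGTGA in lower case in the printed stretch, and so does Atg3.

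Other genes of the pathway showed the same mixture. For comparison, the F test passed for 41.9% of all genes and 64.6% of the brightest 25%. The lysosomal order by set held for 31% and 35.1%, and the opposite one for 23.4% and 31.6%. Of 41 other lysosomal enzymes and proteins tested, 26 passed the F test and 26 had the lysosomal order by set (63.4%), with 7 in the opposite one. The largest range was that of Ctsk, the collagen-degrading cathepsin K, at 11.69 ± 0.07, 11.75 ± 0.09 and 10.49 ± 0.15 in IgG 1 to 3 and 10.32 ± 0.15, 10.33 ± 0.19 and 11.89 ± 0.04 in E2 1 to 3 (adjusted p = 5.94e-15). Cd68 and the peptidase Tpp1 followed (adjusted p = 3.32e-10 and 4.42e-09). Of 13 other proton pump subunits, 9 passed, with Atp6v1g1, Atp6ap2 and Atp6v0b in front (adjusted p = 2.69e-12, 5.76e-08 and 1.12e-07), and 6 had the lysosomal order against 4 in the opposite one.

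Among 35 other autophagy genes, 20 passed the F test, beside 41.9% of all genes and 64.6% of the brightest 25%. The orders were balanced, at 12 each. Wdr45 and Atg10, a lipid-binding protein and a conjugation enzyme, were higher in IgG 1, IgG 2 and E2 3, and Epg5, a tether for fusion with lysosomes, was lower there (adjusted p = 1.50e-09, 1.63e-07 and 2.24e-09). Of 28 genes of mTORC1, AMPK and the TFE factors, 18 passed, beside the same shares of all and of bright genes. Mitf, a relative of Tfeb, ran opposite to the lysosomal genes, at 9.27 ± 0.09, 9.18 ± 0.12 and 10.01 ± 0.18 in IgG 1 to 3 and 9.96 ± 0.14, 9.77 ± 0.11 and 9.13 ± 0.07 in E2 1 to 3 (adjusted p = 1.92e-10). Rragd, a GTPase that brings mTORC1 to lysosomes, had the lysosomal order, and Sesn3, an mTORC1 inhibitor, the opposite one (adjusted p = 1.77e-08 and 7.69e-08).

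The second question was how the platform positions differed from the incubator within an arm. No member passed at 1g, 2g or ug or for the mean of the 3 positions in either arm (limma without a block), and no gene in the table did (0%). At an unadjusted p below 0.05 there were 1, 0 and 0 members at 1g, 2g and ug in the IgG arm, against 6.11%, 8.78% and 5.16% of all genes, and 0, 1 and 0 in the E2 arm, against 3.13%, 1.97% and 4.22%. For the mean of the positions there was 1 member in each arm, with 9.99% of all genes in the IgG arm and 2.8% in the E2 arm. With the set as a replicate block, which pairs the arrays of a set, no member passed either, against 7 genes (0.0483%) at 1g and 102 (0.704%) for the mean of the positions in the IgG arm. The unadjusted counts, and standard errors given without mention of the block, come from the fit without it. The spread in that fit includes the differences among sets. For the mean of the positions over both arms 0 members passed without the block (0%), or at an unadjusted p below 0.05 (6.19% of all genes), or with the block (0.669%). All these comparisons of an arm share its 3 incubator arrays.

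In the E2 arm the lysosomal genes were mostly higher on the platform by small amounts. For the mean of the positions 14 of 15 were higher, with a median change of 0.06, and all 10 hydrolases and pump subunits were among them. The machinery had 15 of 22 higher with a median of 0.03, while 39% of all genes were higher (median -0.02) and 52.8% of the brightest 25% (median 0.00). In the IgG arm 9 of 15 lysosomal genes and 10 of 22 of the machinery were higher, with medians of 0.01 and -0.01. After quantile normalization, which gives all arrays 1 distribution, 11 of 15 lysosomal genes were higher in each arm, with medians of 0.03 in the E2 arm and 0.04 in the IgG arm. The difference between the arms in the lysosomal median, 0.06, fell to 0.01.

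Within sets, the mean of the lysosomal genes on a platform array exceeded that of the incubator array of its set in 9 of 9 cases in the E2 arm and 4 of 9 in the IgG arm. For the Atg8 family it did so in 9 of 9 and 7 of 9, and for the conjugation enzymes in 4 of 9 and 1 of 9. The mean of all genes did so in 0 of 9 and 4 of 9, and that of the brightest 25% in 6 of 9 and 2 of 9. The 9 comparisons of an arm share 3 incubator arrays.

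Hexa (10585874) had the smallest p of the lysosomal genes in the E2 arm. Its incubator values were 11.16, 11.05 and 11.48 in E2 1 to 3. Its platform values at 1g, 2g and ug were 11.41, 11.41 and 11.33 in E2 1, 11.26, 11.27 and 11.22 in E2 2, and 11.52, 11.57 and 11.52 in E2 3. Every platform array of a set lay above its incubator array, but the sets differed by more than the environments did, so the groups overlapped. The change was 0.16 ± 0.10 (limma adjusted p = 1.00), and with the replicate block 0.16 ± 0.04 (adjusted p = 0.419). Map1lc3a, an LC3 gene, and Gabarapl2 were the other members with all 9 platform arrays above their set's incubator array in the E2 arm, which held for 1.3% of all genes.

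Gabarapl2, an Atg8 protein also known for trafficking within the Golgi, read 11.59, 11.65 and 11.60 in the incubator and 11.65 to 11.77 on the platform in E2 1 to 3, a change of 0.08 ± 0.03 that did not pass the test (limma adjusted p = 1.00, or 0.633 with the replicate block). Gabarap (0.05 ± 0.03), Atg12 (0.12 ± 0.09) and Map1lc3a (0.09 ± 0.06) followed among the machinery. Without E2 3 the change of Atg12 turned to -0.06. Among lysosomal genes Npc2 (0.07 ± 0.04), Neu1 (0.10 ± 0.08) and Ctsl (0.05 ± 0.06) followed Hexa, and none passed.

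In the IgG arm the conjugation enzyme Atg3 (10435963) was lower on the platform. It read 10.18, 10.21 and 10.11 in the incubator and 9.85 to 10.14 on the 9 platform arrays, each below its own set's incubator array. The change was -0.17 ± 0.08 (limma adjusted p = 0.488, or 0.109 with the replicate block). Becn1, Lamp2, Ctsl and Atp6v1h also had no platform array above the incubator array of its set in this arm, and 9.06% of all genes did so.

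Atp6v1h read 9.84, 9.96 and 9.46 in the incubator and 9.63, 9.64 and 9.77 (IgG 1), 9.70, 9.65 and 9.60 (IgG 2) and 9.23, 9.34 and 9.39 (IgG 3) on the platform, a change of -0.20 ± 0.16 (limma adjusted p = 0.654, or 0.111 with the replicate block). Ctsd, with 0.06 ± 0.05, was the member with all 9 platform arrays above the incubator array of their set, as were 6.69% of all genes. The remaining members with the smallest p in this arm were Wipi1 (-0.12 ± 0.07), Atg5 (-0.12 ± 0.10), Map1lc3b (0.07 ± 0.05), Neu1 (0.10 ± 0.08) and Atp6v0d1 (0.07 ± 0.06), and none passed. Against 1g, neither 2g nor ug gave a call in either arm. At an unadjusted p below 0.05 there was 1 member for 2g against 1g in the E2 arm (2.46% of all genes) and 0 for ug (3.54%), and 0 for both in the IgG arm (1.79% and 1.12%).

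**Figure D4:**
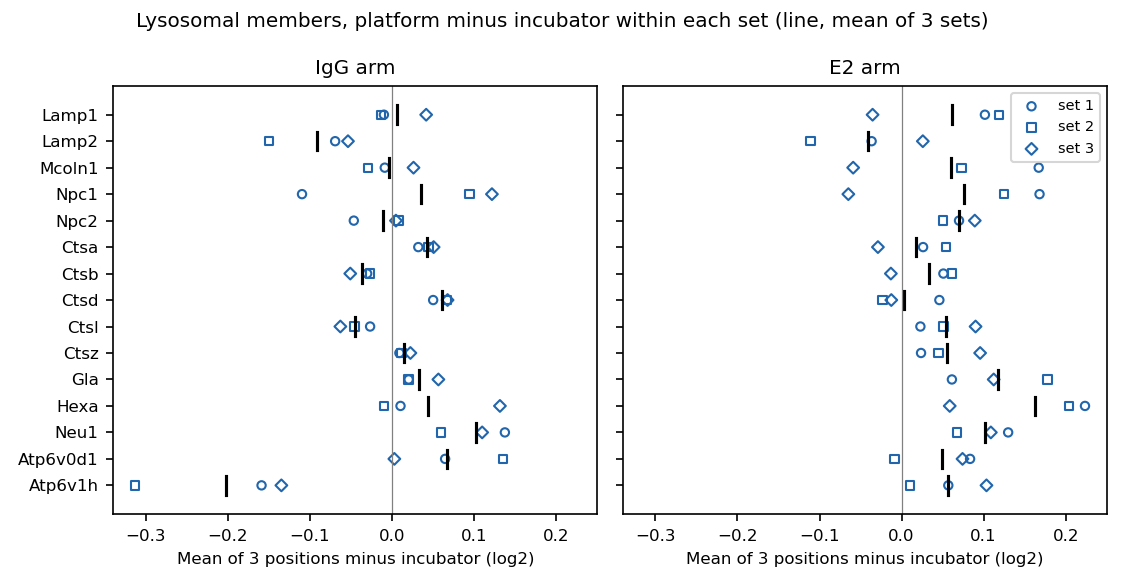
Change of each of the 15 lysosomal members from the incubator to the mean of the 3 platform positions, in log2 units, within sets 1 to 3 (symbols) of the IgG arm (left) and the E2 arm (right); black lines give the mean of the 3 sets. Means lie to the right of 0 for 14 genes in the E2 arm and for 9 in the IgG arm, where Atp6v1h lies farthest to the left at -0.20.

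No list of the other pathway genes had a called member for the mean of the positions in either arm, with or without the block. In the E2 arm 26 of 41 other lysosomal genes (median 0.02) and 10 of 13 other pump subunits (median 0.06) were higher, and in the IgG arm 26 (median 0.03) and 7 (median 0.01). Other autophagy genes had a median of 0.01 in the E2 arm and -0.07 in the IgG arm, where 12 of 35 were higher.

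The third question was whether the response to the platform differed between arms. No member passed (limma, with or without the replicate block), and at an unadjusted p below 0.05 there were 0 members at 1g, 2 at 2g, 0 at ug and 1 for the mean of the positions, with 4.7%, 5.98%, 3.61% and 6.66% of all genes. No gene passed for any of them (0%).

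The fourth question was how the Cx43(E2) antibody differed from the irrelevant IgG in each environment. In the incubator 1 of 38 members passed, against 2.92% of all genes (423 of 14489), and at 1g, 2g and ug none did, nor did any gene (0%). At an unadjusted p below 0.05 there were 8 members in the incubator, where 29.9% of all genes were, with 3 at 1g (12.5%), 2 at 2g (4.32%) and 3 at ug (12.9%). The incubator call was Atg3. It read 10.18, 10.21 and 10.11 with IgG and 9.71, 9.78 and 9.73 with Cx43(E2), so the groups did not overlap. The difference was -0.43 ± 0.10 (limma adjusted p = 0.0435, or 0.0438 with the number as a replicate block, under which 3.59% of all genes passed). On the platform the groups overlapped, with differences of -0.27 ± 0.10 (1g), -0.11 ± 0.10 (2g) and -0.23 ± 0.10 (ug) and adjusted p = 0.327, 0.953 and 0.348. The call ended after quantile normalization (-0.37, adjusted p = 0.0611), without the filter (0.0502), with only the arrays compared (0.0786) and without set IgG 1 (0.178), IgG 2 (0.303) or E2 2 (0.103), or without the 2g and ug arrays of IgG 2 (0.0675). The range of its adjusted p over 13 alternatives was 0.0358 to 0.303. The count over all genes depended on the same settings, at 46 after quantile normalization, 60 without the filter, 0 with only the arrays compared or without those 2 arrays, and 0 to 1355 when 1 set was left out (0 without IgG 1 or IgG 2, 1 without E2 2, 589 without E2 3, 748 without IgG 3 and 1355 without E2 1).

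In the incubator, as deposited, more members were lower than higher with Cx43(E2), and for the machinery this turned with quantile normalization. As deposited, 12 of 15 lysosomal genes were lower (median -0.10) and 14 of 22 of the machinery (median -0.03), where 53.9% of all genes were higher (median 0.02) and the brightest 25% had a median of -0.03. After quantile normalization 4 of 15 lysosomal genes were higher, but so were 13 of 22 of the machinery (median 0.012) and 18 of the 38 members, against 12 of 38 as deposited. The arrays of the groups did not overlap for 9 members in the incubator, against 35% of all genes, for 4 at 1g (13.3%), 3 at 2g (9.42%) and 4 at ug (17%). In each environment this was no larger a share of the 38 members than of all genes. The division among sets was not balanced between the arms. IgG 1 and IgG 2 were high in the lysosomal genes and IgG 3 low, while E2 3 was high and E2 1 and E2 2 low. On the incubator arrays the mean deviation of these genes was 0.09, 0.11 and -0.10 in IgG 1 to 3 and -0.16, -0.17 and 0.10 in E2 1 to 3. Both the differences between arms and the spread within a group include that division. The part of the sets in the differences was not tested.

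Lamp2 (10604187), a lysosomal membrane protein that also serves chaperone-mediated autophagy, was the member lower without overlap in 3 environments, as were 3.56% of all genes. It read 11.92, 11.91 and 11.74 with IgG in the incubator and 11.52, 11.55 and 11.70 with Cx43(E2). At 1g it read 11.78, 11.73 and 11.69 against 11.29, 11.37 and 11.68, and at ug 11.88, 11.77 and 11.67 against 11.59, 11.47 and 11.66. In every one of these environments E2 3 lay nearest to the IgG arrays. The differences were -0.27 ± 0.10, -0.29 ± 0.10 and -0.20 ± 0.10, with -0.17 ± 0.10 at 2g, and none passed (limma adjusted p = 0.0887, 0.312, 0.393 and 0.953). Without set E2 3, Lamp2 passed in the incubator (-0.33, adjusted p = 0.0380) and at 1g (-0.40, adjusted p = 0.0208), as did Ctsb in the incubator (-0.17, adjusted p = 0.0461) and Atg3 at 1g (-0.38, adjusted p = 0.0253). Leaving out E2 3 takes away the high set of the E2 arm, while IgG 1 and IgG 2 stay in. Set means of Lamp2 were 11.49, 11.46 and 11.72 in E2 1 to 3 and 11.87, 11.80 and 11.70 in IgG 1 to 3. These larger differences therefore include the division among sets.

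Gabarapl2 was the member higher without overlap in 3 environments, as were 1.51% of all genes. With IgG it read 11.63, 11.60 and 11.62 at 1g, 11.62, 11.60 and 11.58 at 2g, and 11.62, 11.61 and 11.62 at ug. With Cx43(E2) it read 11.65, 11.69 and 11.65, then 11.77, 11.72 and 11.69, then 11.67, 11.71 and 11.68. The arms were apart at every platform position but by little, at 0.05 ± 0.04, 0.13 ± 0.04 and 0.07 ± 0.04, and in the incubator they overlapped (-0.03 ± 0.04). None passed (limma adjusted p = 0.620, 0.953, 0.445 and 0.631).

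Map1lc3a (10477637) had the smallest p of the members at ug. It read 9.38, 9.50 and 9.62 with IgG and 9.71, 9.82 and 9.80 with Cx43(E2), without overlap, and the difference was 0.27 ± 0.08 (limma adjusted p = 0.299). It was also higher without overlap in the incubator, at 9.46, 9.52 and 9.49 against 9.60, 9.75 and 9.62, a difference of 0.16 ± 0.08 (adjusted p = 0.162).

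Of the other members with the smallest p in the incubator, Ulk1 was higher by 0.30 ± 0.12 (limma adjusted p = 0.117), and Atg12 (-0.23 ± 0.11), Atp6v1h (-0.40 ± 0.19), Npc2 (-0.12 ± 0.05) and Ctsb (-0.11 ± 0.05) were lower, with adjusted p between 0.135 and 0.165. For Atg5 the difference lay between -0.29 and -0.21 in the 4 environments, and the groups did not overlap at 1g. At ug Gabarapl1 was higher by 0.17 ± 0.09 (adjusted p = 0.407).

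**Figure D5:**
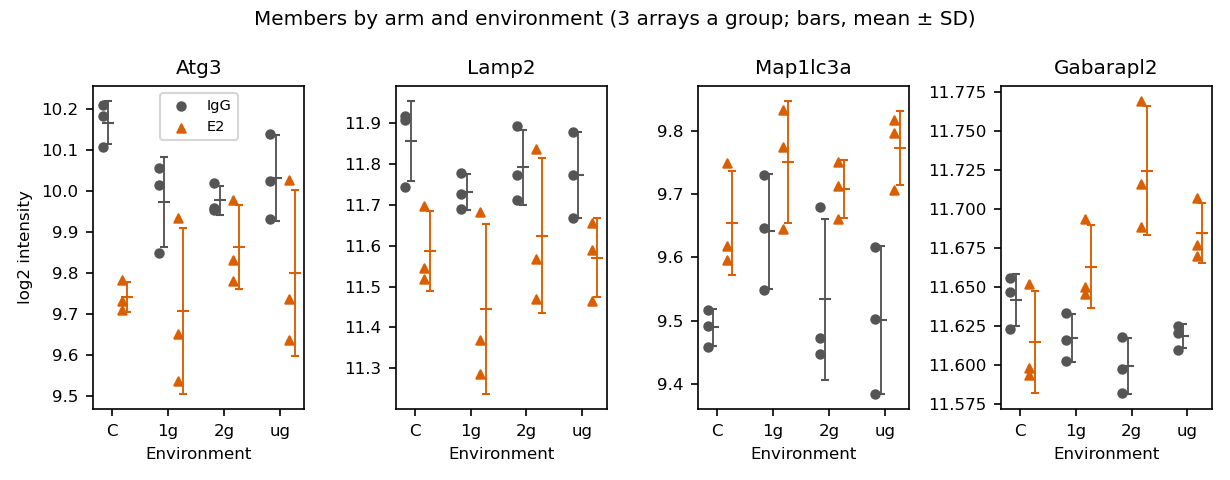
Log2 intensity of Atg3, Lamp2, Map1lc3a and Gabarapl2 by environment, with IgG arrays as circles and Cx43(E2) arrays as triangles, 3 a group; bars give mean ± SD, and each panel has its own scale, the narrowest being that of Gabarapl2. Atg3 is apart in the incubator, Lamp2 is lower with Cx43(E2) in the incubator, at 1g and at ug, and Gabarapl2 is higher at the 3 platform positions.

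Among the other pathway genes, 1 passed for the antibody in the incubator, where 2.92% of all genes did. Atp6v1d, a stalk subunit of the proton pump, fell with Cx43(E2), with a difference of -0.30 ± 0.07 (limma adjusted p = 0.0456). The call ended after quantile normalization (adjusted p = 0.0773), without the filter (0.0539), with only the arrays compared (0.0927), without the 2g and ug arrays of IgG 2 (0.0681), and without any 1 set (0.0570 to 0.303) other than E2 1 (0.0239). Of 41 other lysosomal genes 11 were higher and the median was -0.08, of 13 other pump subunits 3 were higher, and of 35 other autophagy genes 14 were higher with a median of -0.04.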

How the data were processed

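Total RNA of MLO-Y4 cells in 8 groups of 3 was hybridised to 24 Affymetrix arrays, and arm, environment and replicate number were taken from the sample titles. The values deposited by the authors are log2 intensities, a scale read from the values themselves. MAS5 is named, without role or version, in the submitters' processing notes, and the genome build is not given in the sources used here. Of 35556 rows, 21789 carried 1 gene symbol. A row was kept (15786) where 3 or more arrays read above their own 40th percentile, and the brightest row stood for a gene (14489 genes). Optn had no row with its symbol alone and was not analysed here.

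The members and the lists of other pathway genes and markers were chosen with earlier results of these data known. The genes named are the members called in a comparison, the 4 of each class with the smallest p for the platform mean and for E2 against IgG, the 3 with the widest and the 3 with the narrowest range over the 24 arrays, those whose arms did not overlap in 3 environments, and the 3 genes with the smallest p of each other list. Some further members are described by role and were chosen with their values in view.

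Tests used limma (version 3.58.1, R 4.3.3) on 8 group means with a variance trend, Benjamini-Hochberg adjustment over all genes and a threshold of 0.05, for 21 comparisons, after the scripts were tested on simulated data. An exact permutation test of 3 against 3 arrays cannot go below 0.1. Replicates of a group differed by an SD of 0.209 to 0.381 per array pair over 24 pairs, with at most 6 identical values, so no array was counted as a duplicate. Whether the numbers pair arrays was checked from deviations around group means: the correlation was 0.195 to 0.812 in all 36 pairs of the same arm and number, with a median of -0.452 over 72 pairs of the same arm and different numbers, and -0.748 to -0.0141 over 48 pairs of the same number in different arms. No label says so, but on these values arrays of 1 arm with 1 number were treated as paired, and a fit with this replicate block was run beside the fit without it. No such pairing was seen across arms, so the block by number in E2 against IgG is given only as an alternative. The other alternatives were quantile normalization, no variance trend, no filter, averaging all rows of a gene, fitting the arrays compared alone, each set left out in turn, and IgG 2 left out at 2g and ug. Array intensities carry no counts, so the number of arrays limits the precision.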

Additional observations from a re-analysis of the deposited data

Results flagged for a closer look

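For 11 changes of 7 members from the incubator, every set of the IgG arm moved down and every set of the E2 arm moved up. The difference between the arms was tested for each as an interaction (limma, Benjamini-Hochberg over all genes), and none passed with or without the replicate block. Values are differences of changes, E2 minus IgG, in log2 units with the standard error. The 2 arms' changes each rest on 3 incubator arrays, which the positions share.

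At 1g there were 5 such members of 38, while 3.79% of all genes moved in opposite directions in all sets of the arms. They were the cargo receptor Sqstm1 (0.21 ± 0.27), the cholesterol-binding protein Npc2 (0.13 ± 0.08), the proteases Ctsb (0.11 ± 0.07) and Ctsl (0.083 ± 0.101), and the proton pump subunit Atp6v1h (0.30 ± 0.27). For Atp6v1h the changes were -0.21, -0.26 and -0.23 in IgG 1 to 3 and 0.02, 0.04 and 0.14 in E2 1 to 3. The adjusted p was 0.999 for each of the 5, and 0.616 to 0.799 with the replicate block.

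At 2g there were 2 such members, with 6.58% of all genes. Atg3, the enzyme that hands LC3 to lipid, differed by 0.31 ± 0.14, with changes of -0.16, -0.26 and -0.15 in the IgG sets and 0.07, 0.05 and 0.25 in the E2 sets. The Atg8 protein Gabarapl2 differed by 0.15 ± 0.05. Their adjusted p was 0.814 and 0.811, and 0.334 for both with the replicate block. At ug Gabarapl2 was the 1 such member, with 0.094 ± 0.052 (adjusted p = 1.00, or 0.694 with the block), against 3.55% of all genes.

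For the mean of the 3 positions there were 3 such members, with 6.45% of all genes: Sqstm1 (0.14 ± 0.22), Ctsl (0.10 ± 0.08) and Atp6v1h (0.26 ± 0.22). Their adjusted p was 0.980, 0.894 and 0.902, and 0.330, 0.490 and 0.333 with the replicate block. Groups of 3 arrays are too small for a check of single outlying arrays.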

How the results depend on the processing

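Over the alternatives that keep all arrays, all 42 class levels, 240 of 252 median changes and 135 of 138 counts of called members were counted as kept. For single members 285 of 288 values kept direction and side of the threshold. A class level or median counted as kept if it moved by less than its SD over arrays or sets. A small median could thus change sign and still count. Counts of called members were kept if equal, or if both were above 0 and close, and in most comparisons both were 0. With the replicate block within an arm no member's call changed, while for the mean of the positions in the IgG arm 102 genes passed against 0. With the number as a block 520 genes passed for E2 against IgG at C against 423, and Atg3 stayed past the threshold (adjusted p = 0.0438).

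Quantile normalization moved small medians. For the machinery they became 0.027 (IgG, 1g), 0.012 (IgG, ug), 0.024 (IgG, mean of positions), -0.0055 (E2, 2g against 1g), 0.012 (E2 against IgG at C), and, E2 minus IgG, -0.0067 (1g), -0.015 (2g) and -0.012 (mean). For the lysosomal genes they became 0.013 (IgG, 1g), 0.035 (IgG, mean), 0.032 (E2, mean) and 0.0069 (E2 minus IgG, mean). The count of members called for E2 against IgG at C was 0 after quantile normalization, without the filter and with only the arrays compared.

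With 1 set left out, lysosomal medians ranged from -0.010 to 0.071 (IgG, 2g), -0.0069 to 0.035 (IgG, ug), -0.0076 to 0.017 (IgG, mean), 0.041 to 0.057 (E2, mean), 0.028 to 0.041 (both arms, mean) and 0.048 to 0.082 (E2 minus IgG, mean). Machinery medians ranged from -0.030 to 0.0084 (IgG, ug), 0.022 to 0.046 (E2, mean), -0.0039 to 0.022 (both arms, mean) and -0.022 to 0.026 (E2 against IgG at 1g). Only medians that moved by more than their SD are in these lists. Lysosomal medians for E2 against IgG ranged more widely but counted as kept. With IgG 2 at 2g and ug among the cases left out, they ran from -0.168 to -0.048 (C), -0.074 to 0.032 (1g), -0.113 to -0.026 (2g) and -0.111 to 0.035 (ug). For ug against 1g in the E2 arm the range was -0.040 to 0.080. Members called ranged from 0 to 3 (E2 against IgG at C), 0 to 2 (at 1g), 0 to 20 (among IgG sets) and 1 to 24 (among E2 sets). Without IgG 2 at 2g and ug, lysosomal medians were -0.021 (IgG, 2g), -0.035 (IgG, 2g against 1g), -0.016 (IgG, mean), 0.022 (both arms, mean) and 0.075 (E2 minus IgG, mean), that of the machinery was -0.0049 (both arms, mean), and 0 members were called at C. Reversals came without E2 3: Atg12 in the E2 arm (mean of positions) at -0.061, within a range up to 0.253, and Ctsl for E2 against IgG at ug at -0.023, within a range up to 0.153. The cause was not tested in any of these cases. All 38 members passed the filter on dim rows, so 3 arrays a group set the limit.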
